A study of Mus musculus with 8 samples.

Results

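687g and pB2 are mouse mammary carcinoma cell lines, and they were set against each other because 687g has the lowest Cdh1 level and pB2 the lowest Vim level among the 4 lines of the series. The comparison rests on the 4 libraries titled 687g or pB2, 2 per line, of 8 poly(A) RNA sequencing libraries in all. pB2 came from a tumour of the MMTV-PyMT mouse, in which the MMTV promoter drives the polyoma middle T oncogene in mammary epithelium. 687g came from a tumour of the same transgenic model that also carries a Snail-IRES-YFP reporter. The remaining lines are pB3, from MMTV-PyMT, and Epcam hi, from the reporter model. All are on the C57BL/6 background, share the oncogene and grew untreated as monolayers in DMEM/F12 with 5% adult bovine serum. Each line is a single line of its model, so mouse model and cell state cannot be told apart between 687g and pB2. The labels do not say whether the libraries of a line are separate cultures, so a p-value here covers the spread of these libraries and no more, which may be technical.

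Epithelial cells are held together by E-cadherin junctions, desmosomes and tight junctions, and they have an apical and a basal side. In an epithelial to mesenchymal transition these structures are dismantled, and vimentin filaments, matrix proteins, proteases and motility genes are switched on. Transcription factors of the Snail, Zeb and Twist families bind E-box sequences in the promoters of epithelial genes and repress them. Grainyhead-like and Ovol factors maintain the epithelial programme, and the Esrp proteins maintain its splicing. MMTV-PyMT mammary tumours are a common model in which cells along this range can be isolated as lines.

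Cdh1, the E-cadherin gene, was at 144 and 167 CPM (counts scaled to library size) in the pB2 libraries and at 1.90 and 0.739 CPM in the 687g libraries. It stood at 51.8 and 51.0 CPM in pB3 and at 457 and 520 CPM in Epcam hi. Vim, the vimentin gene, was at 13.8 and 14.1 CPM in pB2 and at 3388 and 2335 CPM in 687g. Its level was 2310 and 2432 CPM in pB3 and 21.3 and 32.5 CPM in Epcam hi. The pair was chosen on these values, so they are a description without a test. By Cdh1, 687g is apart from all other lines, whereas by Vim it lies beside pB3.

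Libraries held 12442730 to 19149916 counts. Replicates of pB2 correlated at r = 0.992 across genes and those of 687g at r = 0.986, with 2.96% and 6.32% of genes more than 2-fold apart. Genes are not independent replicates, and these values describe the libraries only. Markers of cell types that a tumour culture could hold were low in part. Of 12 leukocyte markers, 6 had no count in either line, Ptprc among them, and 1 was called higher in 687g (Csf1r), a call lost without 687g replicate 1 or either pB2 library. Their summed level was 0.963 to 1.49 CPM in pB2 and 2.82 to 3.74 CPM in 687g. Of 9 endothelial markers, Tie1, Cldn5 and Emcn were at 0 in both lines and Erg was lower in 687g, with sums of 5.18 to 7.90 CPM in pB2 and 0.336 to 0.837 CPM in 687g. The 12 fibroblast markers summed to 58.9 to 73.2 CPM in pB2 and 946 to 1134 CPM in 687g. Most of the sum in 687g was Smoc2, at 787 and 705 CPM. Of the 12 markers, Smoc2, Gsn and Col15a1 were higher and Pdgfra and Fbln1 lower in 687g. Dpt and Clec3b were at 0 in both lines, and Dcn, Lum and Col3a1 had at most 2 counts in a line. The 6 pericyte and smooth muscle markers summed to 31.0 to 46.0 CPM in pB2 and 17.1 to 26.7 CPM in 687g, with Notch3 lower, Pdgfrb, Des and Rgs5 higher in 687g and none at 0 in both lines. Sums of the 7 adipocyte markers were 1.04 to 1.91 CPM in pB2 and 12.9 to 18.5 CPM in 687g, with Adipoq, Lep and Cfd at 0 in both. The part of such cells in the results was not tested.

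Of 15890 genes tested, 8309 differed between 687g and pB2 at an adjusted p under 0.05 by edgeR's quasi-likelihood test, which is 52.3% of them. Of these, 4060 were higher in 687g (25.6% of genes tested) and 4249 lower (26.7%). Scaling by total counts in place of TMM turned this split into 3163 higher and 5289 lower, and the median over all genes moved from 0.03 to -0.20 on the log2 scale. Among called genes, 5849 differed at least 2-fold and 1917 at least 16-fold, and the median size was 1.60 on the log2 scale. The counts of each gene list are to be read against these shares. All lists were chosen with earlier results of these data known, so none is independent evidence of a direction. A sample of many cells cannot tell fewer cells of a type from less RNA per cell.

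The other pair of lines, pB3 against Epcam hi, shares no library with 687g against pB2 and crosses the mouse models the other way round. In it 4666 genes were called (29.4%), 2352 higher in pB3 (14.8%) and 2314 lower (14.6%). Without pB3 replicate 1 these were 1562 and 1292, and without pB3 replicate 2 the lower count was 1323. Both comparisons called 3085 genes, which is 37.1% of the calls between 687g and pB2 and 66.1% of those between pB3 and Epcam hi. In 1660 of them the direction was the same, and in 1425 it was opposite. The counts were smaller with 1 pB3 library: 1082 and 863 without pB3 replicate 1, and 1098 and 873 without pB3 replicate 2. Of all 15890 genes tested, 916 were higher in both comparisons, 744 lower in both and 1425 opposite in the main fit. Counts of list members called in both comparisons are to be read against these. The difference between the 2 comparisons was itself called for 6800 genes (42.8%). It was called for 3470 of the 5224 genes called between 687g and pB2 alone.

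The levels of pB3 and Epcam hi were each assigned to the line of the pair that they lay nearer to. Among the 1028 genes at least 16-fold lower in 687g, both other lines lay nearer to 687g in 592 (57.6%). Both lay nearer to pB2 in 162 (15.8%). In 154 (15%) pB3 lay with 687g and Epcam hi with pB2, and in 120 (11.7%) it was the reverse. Among the 889 genes at least 16-fold higher in 687g, both other lines lay nearer to 687g in 428 (48.1%) and nearer to pB2 in 191 (21.5%). In 175 (19.7%) pB3 lay with 687g and Epcam hi with pB2, and in 95 (10.7%) it was the reverse. Distances are those of log2 mean CPM, and the shares are a description.

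**Figure D1:**
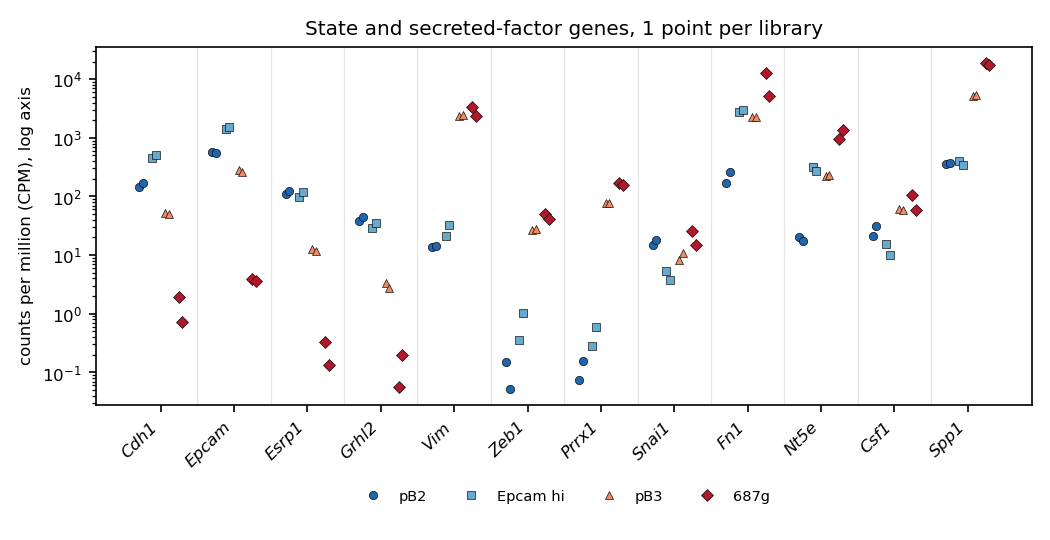
CPM on a log axis for 12 genes, with 1 point per library and 2 libraries for each of pB2, Epcam hi, pB3 and 687g. Cdh1 ran from 0.739 CPM in a 687g library to 520 CPM in an Epcam hi library, and the 687g points of Epcam, Esrp1 and Grhl2 lie below those of every other line.

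Most epithelial junction and polarity genes were lower in 687g. Of 23 members tested, 18 were lower, 2 higher (Cgnl1 among them) and 3 not called. The higher count was 1 with total counts, without 687g replicate 1 and without pB2 replicate 1. The list had a median log2 fold change of -6.43 beside 0.03 for all genes. Epcam, a surface adhesion protein of epithelium, was at 579 and 553 CPM in pB2 and at 3.85 and 3.70 CPM in 687g. Its log2 fold change was -7.22 ± 0.22 (SE, adjusted p = 8.41e-11). St14, the membrane protease matriptase, was at 165 and 155 CPM in pB2 and 0.335 and 0.605 CPM in 687g, a change of -8.42 ± 0.28 (adjusted p = 9.95e-11). Libraries of the lines were far apart for both genes. Marveld3, a tight junction protein, fell from 49.0 and 39.4 CPM to 2 counts over both 687g libraries, a count ratio of 712 with a 95% counting interval of 197 to 5881 (adjusted p = 4.32e-09). The claudin genes Cldn3 and Cldn7 were at 0.917 and 0.615 CPM on average in 687g against 79.4 and 115 CPM in pB2. Crb3 and Cldn8, of apical polarity and of the tight junction, had no count in 687g, at least 138-fold and at least 174-fold lower.

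Not every junction gene followed. Tjp1, the ZO-1 scaffold, was at 53.9 and 81.0 CPM in pB2 and 88.4 and 51.9 CPM in 687g, and F11r, the junctional adhesion molecule A, was at 326 and 252 against 241 and 272 CPM. Neither was called. Cgnl1, a cingulin-like protein of the junction, was higher in 687g, with 41.4 and 57.7 CPM in pB2 and 144 and 180 CPM in 687g (1.70 ± 0.20, adjusted p = 8.25e-06). In pB3 against Epcam hi the list moved likewise, with 20 lower, 3 not called and a median of -2.44. In both comparisons 17 members were lower, beside 744 of all 15890 genes tested. Cgnl1 was the 1 member called in opposite directions. Among the 18 members lower in 687g, both other lines lay nearer to pB2 in 14. A nearer line could still lie between, as pB3 did for St14 at 26.4 and 25.8 CPM. The size differed too: for Epcam the change was 4.78 ± 0.26 log2 units larger in 687g against pB2 than in pB3 against Epcam hi (adjusted p = 6.54e-09), as pB3 kept 278 and 264 CPM. Epcam hi, at 1410 and 1537 CPM, bears the gene in its title. Its level there may reflect how that line was chosen, which limits this test.

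Because the factors named above act at E-boxes, promoters of 3 junction genes and of Rab25, a small GTPase of apical recycling, are shown with the E-box letters CACCTG or CAGGTG in capitals. Those strings are the reverse complement of each other, so the search covers both strands. Each run is the 250 bases before a RefSeq start site, 5′ to 3′ on the gene's strand, in GRCm38.p6. Of 4 genes fixed for display, Cdh1, Epcam, Esrp1 and Grhl2, only Epcam had a matched promoter. Lsr, Crb3 and Rab25 were picked after their values and motifs were seen. Epcam lies on the plus strand at chr17:87635729-87635978, Lsr on the minus strand at chr7:30973470-30973719, Crb3 on the plus strand at chr17:57061981-57062230 and Rab25 on the minus strand at chr3:88548280-88548529.
Epcam: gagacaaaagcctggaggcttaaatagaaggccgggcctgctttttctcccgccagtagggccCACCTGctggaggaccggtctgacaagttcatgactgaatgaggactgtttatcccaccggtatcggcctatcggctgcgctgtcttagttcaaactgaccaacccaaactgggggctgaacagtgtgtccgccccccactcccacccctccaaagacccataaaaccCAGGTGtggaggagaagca
Lsr: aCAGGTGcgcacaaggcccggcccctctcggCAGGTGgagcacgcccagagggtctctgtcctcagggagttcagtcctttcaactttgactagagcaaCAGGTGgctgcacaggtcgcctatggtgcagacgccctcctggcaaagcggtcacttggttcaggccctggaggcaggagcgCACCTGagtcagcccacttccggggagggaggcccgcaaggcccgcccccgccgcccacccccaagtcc
Crb3: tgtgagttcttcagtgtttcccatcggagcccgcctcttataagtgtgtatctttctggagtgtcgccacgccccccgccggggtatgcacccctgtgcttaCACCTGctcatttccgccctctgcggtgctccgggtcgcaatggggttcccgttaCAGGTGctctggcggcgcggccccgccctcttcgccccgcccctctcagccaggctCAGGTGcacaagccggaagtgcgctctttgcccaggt
Rab25: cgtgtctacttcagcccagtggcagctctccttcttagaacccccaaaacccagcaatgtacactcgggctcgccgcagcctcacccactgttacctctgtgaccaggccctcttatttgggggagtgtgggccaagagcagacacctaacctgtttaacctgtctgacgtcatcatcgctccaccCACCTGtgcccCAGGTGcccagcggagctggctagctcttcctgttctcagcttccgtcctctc
The Epcam window holds the motif at -187 and -19 from the start, and the Rab25 window at -64 and -53. Lsr has 4 matches and Crb3 has 3 in these windows. Lsr, a receptor of tricellular junctions, was at 113 and 123 CPM in pB2 and 0.670 and 0.336 CPM in 687g. Rab25 was at 68.9 and 69.2 against 0.502 and 0.269 CPM.

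In windows of 300 bases, from 250 before to 50 after the start, 6640 of 32851 promoters held an E-box of these letters (20.2%). The junction list had 17 of 24 (70.8%), from 17 of its 23 genes that matched the promoter table. For the members lower in 687g the count was 16 of 21 (76.2%). The epithelial regulators had 6 of 13 (46.2%), from 10 of 18 genes matched. Over all genes the shares lay closer together. They were 20.7% for genes lower in 687g, 27% for those at least 16-fold lower, 17.3% for genes higher, 19.2% for those at least 16-fold higher and 16.9% for genes not called. A match is only a description of the letters.

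Epithelial transcription and splicing regulators were lower in 687g in 13 of 17 tested members, higher in 2 and not called in 2, with a median of -7.51. With the 4 members that had no count in 687g set at their bound, the median was -6.54. Esrp1, an epithelial splicing regulator, was at 111 and 125 CPM in pB2 and 0.335 and 0.134 CPM in 687g (-8.88 ± 0.33, adjusted p = 1.53e-10). Grhl2, which activates junction genes, was at 38.8 and 44.6 CPM in pB2 and 0.0558 and 0.202 CPM in 687g (-8.32 ± 0.38, adjusted p = 7.14e-10). These low levels made the fitted size unstable. Without a 687g library in turn, Grhl2 lay between -9.37 and -7.63, and without 687g replicate 1 Esrp1 was -9.69. Ehf, an epithelial Ets factor, was at 67.2 and 84.5 CPM in pB2 with 1 count in 687g, a ratio of 2535 with an interval of 455 to 100169 (adjusted p = 1.55e-09).

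Several members were high in pB2 alone. Tfap2c, an AP-2 factor of luminal cells, was at 180 and 166 CPM in pB2 and 0.223 and 0.202 CPM in 687g (-9.61 ± 0.33, adjusted p = 9.95e-11). It was also at 0.563 and 0.493 CPM in Epcam hi. Elf5, a factor of the alveolar lineage, and Trp63, the p63 gene of basal cells, were at 51.6 and 34.6 CPM in pB2 on average and below 0.2 CPM in each library of the other lines. Gata3, a luminal factor, went the other way, from 3.93 and 5.20 CPM in pB2 to 59.5 and 36.9 CPM in 687g (3.39 ± 0.27, adjusted p = 1.27e-07). Foxa1, another luminal factor, was at 15.6 and 24.5 against 21.0 and 17.1 CPM and was not called. In 9 members the call was lower in both comparisons, beside 744 of all 15890 genes tested.

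Desmosome and keratin genes split. Of 18 tested, 9 were lower and 7 higher in 687g, and 2 were not called. The median of -0.52 became 0.10 without 687g replicate 2 and -0.11 without pB2 replicate 1. Krt7, Krt8 and Krt18 lie in a window of neighbouring genes with a median above 0.75, and outside windows past 0.75 either way 4 members were higher, 8 lower and 2 not called, with a median of -2.09. Krt14, a basal keratin, was at 223 and 186 CPM in pB2 and 0.502 and 0.403 CPM in 687g (-8.78 ± 0.28, adjusted p = 8.86e-11). Dsg2, a desmosomal cadherin, was at 45.9 and 57.0 CPM in pB2 and at 0 and 0.269 CPM in 687g (-8.62 ± 0.48, adjusted p = 3.80e-09), and the fitted change was -12.72 without 687g replicate 2 and -7.53 without replicate 1. The simple-epithelium keratins were higher in 687g. Krt7 averaged 182 CPM in pB2 and 1139 CPM in 687g, Krt18 212 and 1115 CPM, and Krt8 99.4 and 226 CPM. Pkp1, a plaque protein of desmosomes, rose from 0.370 and 0.690 CPM in pB2 to 228 and 108 CPM in 687g (8.23 ± 0.44, adjusted p = 2.87e-09, 7.59 without 687g replicate 1). Jup, the plakoglobin gene, averaged 106 and 103 CPM and was not called. For all 7 members higher in 687g, the levels of pB3 and Epcam hi lay nearer to 687g than to pB2. For Pkp1 they lay between, at 43.8 and 46.0 CPM in pB3 and 18.4 and 23.8 CPM in Epcam hi.

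Transcription factors of the transition were higher in 687g in 10 of 18 members, lower in 4 and not called in 4 (median 1.23). The lower count was 2 without 687g replicate 2, without pB2 replicate 2, or without Msx1 and Sox9, which lie in windows of neighbouring genes with medians below -0.75. Prrx1, a homeobox factor of mesenchyme, was at 0.0741 and 0.159 CPM in pB2 and at 167 and 158 CPM in 687g (10.27 ± 0.35, adjusted p = 9.95e-11, 10.95 without pB2 replicate 2). Zeb1, a repressor of Cdh1, had 3 counts in pB2 and 49.6 and 41.5 CPM in 687g, a ratio of 495 with an interval of 169 to 2403 (adjusted p = 1.88e-09). Both genes were also high in pB3, where Zeb1 was at 27.1 and 28.0 CPM and Prrx1 at 77.5 and 77.9 CPM. Zeb2 and Twist2 had the same pattern, with averages of 1.56 and 1.23 CPM in pB2 and 28.4 and 28.6 CPM in 687g. Snai1, the Snail gene, overlapped between the lines, with 14.7 and 17.9 CPM in pB2 and 25.8 and 14.7 CPM in 687g. Its change of 0.32 ± 0.28 was not called (adjusted p = 0.369). Snai2 was not called either, at 0.461 and 1.12 CPM on average.

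Hmga2, an architectural chromatin protein, separated pB2 from the rest. It was at 1.18 and 1.01 CPM in pB2, at 608 and 520 CPM in 687g, and above 380 CPM in every pB3 and Epcam hi library (9.01 ± 0.28, adjusted p = 8.41e-11). Msx1, a homeobox gene, was lower in 687g at 10.8 and 10.01 CPM against 63.9 and 49.6 CPM in pB2 (-2.45 ± 0.22, adjusted p = 4.93e-07). In 6 members both comparisons called a higher level, Zeb1, Zeb2, Prrx1, Twist1, Twist2 and Tcf4. Of all 15890 genes tested, 916 were higher in both.

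**Figure D2:**
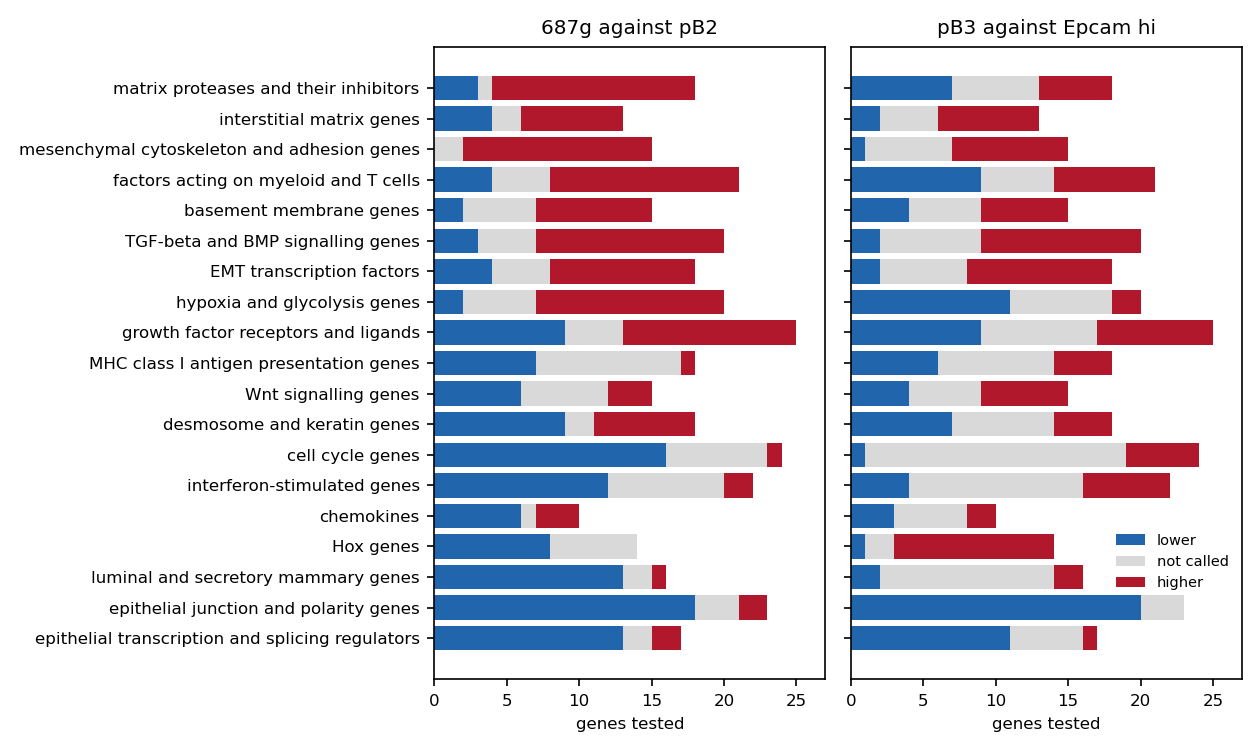
Tested members of 19 gene lists that were called lower, not called or called higher, in genes, for 687g against pB2 on the left and pB3 against Epcam hi on the right, ordered by the median of 687g against pB2. Junction genes are lower on both sides (18 and 20 of 23), whereas luminal genes are lower in 13 of 16 on the left and in 2 on the right.

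Genes of the mesenchymal cytoskeleton and adhesion were higher in 687g in 13 of 15 tested members and lower in 0, with a median of 3.12. Fewer were called higher whenever a library of the pair was left out, and the median then lay between 2.21 and 3.03. The lower count was also 0 at an unadjusted p under 0.05 and by DESeq2 and limma-voom, and scaling by total counts or leaving out 687g replicate 1 made it 1. Axl, a receptor tyrosine kinase of mesenchymal tumour cells, was at 2.67 and 1.27 CPM in pB2 and 1088 and 781 CPM in 687g (8.94 ± 0.35, adjusted p = 1.97e-10). Cdh2, the N-cadherin gene, was at 0.370 and 0.530 CPM in pB2 and 97.5 and 57.8 CPM in 687g (7.37 ± 0.39, adjusted p = 2.40e-09). S100a4, a marker of motile cells, averaged 5.91 CPM in pB2 and 782 CPM in 687g, and Cav1, the caveolin gene, 2.06 and 325 CPM. The other lines put these genes in different classes. S100a4 averaged 860 CPM in pB3 and 6.16 CPM in Epcam hi, whereas Axl was at 399 and 323 CPM and Cdh2 at 22.6 and 33.4 CPM in Epcam hi too. In 11 of the 13 higher members both other lines lay nearer to 687g. The contractile genes Acta2, Tagln, Cnn1 and Myl9 had at most 11 counts in pB2 or 687g and were not tested.

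Interstitial matrix genes gave 7 higher, 4 lower and 2 not called of 13 tested, and 8 of the 21 on the list were too low to test. Fn1, fibronectin, was at 170 and 258 CPM in pB2 and at 12795 and 5216 CPM in 687g (5.39 ± 0.39, adjusted p = 5.24e-08). The 687g libraries differed, and without replicate 1 the change was 4.61. Col5a1, a fibrillar collagen, was at 0.963 and 0.902 CPM in pB2 and 129 and 89.6 CPM in 687g (6.87 ± 0.29, adjusted p = 2.83e-10). Tnc, tenascin C, was at 3.11 and 3.08 against 346 and 212 CPM (6.49 ± 0.29, adjusted p = 4.86e-10). Col1a1, the main collagen of connective tissue, was higher in pB2, at 16.1 and 20.7 CPM against 1.56 and 1.61 CPM in 687g (-3.53 ± 0.33, adjusted p = 7.62e-07). Its partner Col1a2 had no count in either line. The median of 4.44 became 1.34 with members at 0 set at their bound, 2.72 by limma-voom and 3.71 without 687g replicate 1. Of the members tested, Col5a1 did not differ in size from pB3 against Epcam hi beyond its error (0.71 ± 0.44, adjusted p = 0.211), and Fn1 did (5.74 ± 0.49, adjusted p = 5.10e-07).

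In the basement membrane list 8 of 15 tested members were higher, 2 lower and 5 not called, with a median of 1.83. It was 1.06 with members at 0 at their bound, 1.03 by limma-voom and 1.03 without 687g replicate 1, where 4 were lower. Col4a1, a chain of the network collagen IV, was at 0.889 and 0.424 CPM in pB2 and 285 and 158 CPM in 687g (8.45 ± 0.39, adjusted p = 6.80e-10). It was between 280 and 314 CPM in the pB3 and Epcam hi libraries. Its partner chain Col4a2 averaged 0.524 and 134 CPM. Lama4, a laminin chain, had the reverse pattern, at 58.5 and 66.0 CPM in pB2, 0.0558 and 0.202 CPM in 687g and below 0.3 CPM in each other library. Its change was -8.90 ± 0.43 (adjusted p = 1.13e-09), or -9.95 and -8.21 without 687g replicate 2 and replicate 1.

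Matrix proteases and their inhibitors were higher in 687g in 14 of 18 members, lower in 3 and not called in 1, with a median of 4.97. Timp1, an inhibitor of matrix metalloproteases, was at 1.18 and 1.17 CPM in pB2 and 967 and 1288 CPM in 687g (9.90 ± 0.29, adjusted p = 6.81e-11). Mmp3, stromelysin, was at 0.0741 and 0.265 CPM in pB2 and 53.1 and 119 CPM in 687g (8.80 ± 0.52, adjusted p = 6.97e-09). Without pB2 replicate 2 the change of Mmp3 was 10.04, and without 687g replicate 2 it was 8.10. Genes of the plasminogen system were higher in 687g: Plau, the urokinase, averaged 6.11 and 292 CPM, and its receptor Plaur 4.64 and 94.7 CPM. Timp3, a matrix-bound inhibitor, went against the list, at 654 and 802 CPM in pB2 and 1.06 and 1.81 CPM in 687g (-9.0004 ± 0.31, adjusted p = 1.10e-10). Serpinb5, the maspin gene, averaged 415 and 1.05 CPM. In pB3 against Epcam hi the list gave 5 higher and 7 lower. Calls were opposite in the 2 comparisons for 7 members, beside 1425 of all 15890 genes tested. For 10 of the 14 higher genes both other lines lay nearer to 687g.

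Luminal and secretory mammary genes were lower in 687g in 13 of 16 tested members, higher in 1 (Aldh1a3) and not called in 2, with a median of -5.02. The higher count was 0 without either pB2 library and 2 without 687g replicate 2. Leaving out a 687g library moved the median to -4.03 or -6.00. Lcn2, a siderophore-binding protein of luminal cells, was at 1385 and 1468 CPM in pB2 and 1.28 and 2.28 CPM in 687g (-9.66 ± 0.37, adjusted p = 1.88e-10). Hp, haptoglobin, was at 134 and 91.1 CPM in pB2 with 2 counts in 687g, a ratio of 1789 with an interval of 495 to 14778 (adjusted p = 1.72e-10). Wfdc18, a whey acidic protein family gene, averaged 657 and 0.968 CPM, Prlr, the prolactin receptor, 69.7 and 0.129 CPM, and Kit, of luminal progenitors, 24.9 and 0.0336 CPM. All 5 were low in Epcam hi as well, where Lcn2 was at 4.29 and 1.97 CPM and Hp at 0.0703 and 0.0547 CPM. In pB3 against Epcam hi the list had 2 higher, 2 lower and 12 not called. In 11 of the 13 members lower in 687g both other lines lay nearer to 687g than to pB2. Steap4, a metalloreductase, had the same pattern outside the lists, with 180 and 166 CPM in pB2 and 3 counts in 687g, a ratio of 1880 with an interval of 643 to 9119 (adjusted p = 8.41e-11).

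Of TGF-beta and BMP signalling genes, 13 of 20 were higher in 687g, 3 lower and 4 not called (median 1.75). Among the ligands, Bmp7 was at 0.148 and 0.371 CPM in pB2 and 132 and 134 CPM in 687g (8.87 ± 0.33, adjusted p = 1.53e-10, 9.74 without pB2 replicate 2). Inhbb, an activin and inhibin subunit, was at 398 and 465 CPM in pB2 and 0.335 and 1.07 CPM in 687g (-9.30 ± 0.35, adjusted p = 1.68e-10). Without 687g replicate 2 it was -10.31 and without replicate 1 it was -8.63. Its paralogue Inhba was the mirror image, at 1.14 CPM in pB2 and 413 CPM in 687g on average. Tgfb1 averaged 24.3 and 109 CPM and Tgfb2 13.3 and 0.274 CPM, so the ligands changed in both directions. Of the receptors, Tgfbr1 averaged 28.0 and 112 CPM and was higher, Tgfbr2 averaged 45.7 and 45.2 CPM and was not called, and the co-receptor Tgfbr3 was lower with 1 count in 687g. Of its target genes, Smad7, an inhibitory Smad, averaged 18.0 and 265 CPM and Id3, an inhibitor of differentiation factors, 37.9 and 459 CPM, both higher. For 6 of the 13 higher genes both other lines lay nearer to pB2.

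Wnt genes had no common direction, with 3 higher, 6 lower and 6 not called of 15 tested and a median of -0.44. The median was -0.78 without 687g replicate 1, -0.17 without 687g replicate 2 and -0.11 without pB2 replicate 2. Notum, a secreted enzyme that inactivates Wnt ligands, was at 0.0741 and 0.159 CPM in pB2 and 184 and 104 CPM in 687g (10.10 ± 0.45, adjusted p = 4.91e-10, 10.78 without pB2 replicate 2). It was below 0.5 CPM in each pB3 and Epcam hi library. Wnt5a, a ligand of non-canonical signalling, had 2 counts in pB2 and 43.7 and 32.0 CPM in 687g, a ratio of 621 with an interval of 171 to 5130 (adjusted p = 2.78e-09). It was at 44.2 and 47.8 CPM in pB3. Wnt5b averaged 56.9 and 0.833 CPM, and the Wnt inhibitor Sfrp1 194 and 22.0 CPM, both lower in 687g.

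Growth factor receptors and ligands gave 12 higher, 9 lower and 4 not called of 25 (median 0.29, or 0.54 without pB2 replicate 2 and 0.51 without Pdgfa, which lies in a window with a median below -0.75). Ligands of the EGF receptor were higher in 687g: Ereg, epiregulin, was at 0 and 0.212 CPM in pB2 and 135 and 134 CPM in 687g (10.01 ± 0.40, adjusted p = 2.02e-10). The fitted change of Ereg was 14.05 without pB2 replicate 2 and 9.25 without replicate 1. Areg, amphiregulin, averaged 1.32 and 759 CPM, and Hbegf 4.54 and 143 CPM. Their receptor Egfr averaged 12.7 and 54.4 CPM, while Erbb3 fell from 18.9 to 0.268 CPM. The genes of insulin-like growth factor binding proteins changed in both directions. Igfbp2 was at 1134 and 1051 CPM in pB2 and 1.34 and 1.68 CPM in 687g (-9.50 ± 0.28, adjusted p = 6.81e-11), and Igfbp5 averaged 5414 and 8.57 CPM. Igfbp4 averaged 31.3 and 1300 CPM and was higher. Fgfr2, the epithelial FGF receptor, was lower, with 23.4 CPM in pB2 and 1 count in 687g. Fgfr1 averaged 190 and 231 CPM and was not called.

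Secreted and surface factors that act on myeloid and T cells were higher in 687g in 13 of 21 tested members, lower in 4 and not called in 4, with a median of 2.41. The list holds Nt5e, Csf1 and Spp1, which were chosen with earlier results of these libraries known. Like the other lists, it is not independent evidence of a direction. Nt5e, the CD73 enzyme that makes adenosine, was at 20.2 and 17.4 CPM in pB2 and 968 and 1346 CPM in 687g (5.94 ± 0.24, adjusted p = 2.44e-10). Spp1, osteopontin, was at 360 and 371 CPM in pB2 and 18663 and 17706 CPM in 687g (5.64 ± 0.22, adjusted p = 1.77e-10). Csf1, a macrophage growth factor, was at 20.9 and 30.9 CPM against 108 and 58.1 CPM (1.68 ± 0.30, adjusted p = 0.000291). The 3 genes differed in the other pair: Spp1 and Csf1 were called higher in pB3 than in Epcam hi, and Nt5e was not called (-0.38 ± 0.19, adjusted p = 0.165). The difference between the comparisons was 6.33 ± 0.30 for Nt5e (adjusted p = 2.01e-09) and was not called for Csf1 (-0.55 ± 0.42, adjusted p = 0.309).

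Il6, an inflammatory cytokine, had 1 count in pB2 and 148 and 263 CPM in 687g, and it was below 1.5 CPM in every library of the other lines. The count ratio was 6477 with an interval of 1162 to 255859 (adjusted p = 1.01e-09). Ptgs2, the COX-2 enzyme of prostaglandin synthesis, was at 2.52 and 2.55 CPM in pB2 and 923 and 917 CPM in 687g (8.50 ± 0.24, adjusted p = 6.56e-11). The prostaglandin E synthase Ptges was lower, at 21.3 and 4.45 CPM on average. Arg1, arginase, was also lower, with 20.3 and 12.9 CPM in pB2 and 3 counts in 687g, a ratio of 175 with an interval of 59.6 to 851 (adjusted p = 1.29e-07). Of the angiogenic factors, Vegfa was higher (43.0 and 283 CPM on average) and Vegfc lower (3.85 and 0.145 CPM).

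Chemokines were lower in 6 of 10 tested members, higher in 3 and not called in 1 (median -1.62, or -1.07 without pB2 replicate 2). Cxcl16, a chemokine for CXCR6-bearing cells, was at 27.9 and 25.6 CPM in pB2 and 1.62 and 1.88 CPM in 687g (-3.93 ± 0.23, adjusted p = 6.45e-09). Cxcl1, which draws neutrophils, was higher in 687g and its libraries disagreed, with 0.296 and 0.212 CPM in pB2 and 6.98 and 99.8 CPM in 687g. The change was 7.70 ± 1.14 (adjusted p = 6.62e-05), 4.76 without 687g replicate 2 and 8.62 without replicate 1. Cxcl12, which binds CXCR4, averaged 9.58 and 129 CPM and was higher. Ccl2, which draws monocytes, was lower, at 2.29 CPM in pB2 and at 0 in 687g, at least 25-fold.

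Of 18 genes of MHC class I antigen presentation, 1 was higher, 7 lower and 10 not called, and with total counts 11 were lower. Without 687g replicate 2 the higher count was 2. B2m, the light chain, was at 51.7 and 51.7 CPM in pB2 and 296 and 306 CPM in 687g (2.54 ± 0.18, adjusted p = 4.57e-08). The heavy chain genes H2-K1 and H2-D1 averaged 92.7 and 96.8 CPM in pB2 and 70.7 and 84.0 CPM in 687g and were not called. These are near-identical genes, and how reads were split between them is uncertain. Psmb8, an immunoproteasome subunit, was lower, at 18.1 and 12.1 CPM in pB2 with 2 counts in 687g, a ratio of 240 with an interval of 66.1 to 1989 (adjusted p = 1.96e-06). Tap1, of the peptide transporter, was at 6.59 and 7.21 against 1.34 and 0.336 CPM (-2.98 ± 0.51, adjusted p = 0.000229). Without 687g replicate 1 the change of Tap1 was -4.32, and without replicate 2 it was -2.37.

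Interferon-stimulated genes were lower in 12 of 22 tested members, higher in 2 (Trim25 and Xaf1) and not called in 8. The median was -1.15. Fewer were called lower whenever a library of the pair was left out, and the median then lay between -1.10 and -0.86. The higher count was 1 without 687g replicate 1 or pB2 replicate 2, and 0 without pB2 replicate 1 or with total counts. Ifit2, an RNA-binding antiviral protein, was at 25.5 and 24.6 CPM in pB2 and 0.391 and 0.0672 CPM in 687g (-6.65 ± 0.49, adjusted p = 6.71e-08). It was -8.38 without 687g replicate 1 and -5.98 without replicate 2. Zbp1, a nucleic acid sensor, was at 8.81 and 6.74 against 0.223 and 0.269 CPM (-4.94 ± 0.50, adjusted p = 1.73e-06). Trim25, a ubiquitin ligase, was higher at 117 and 88.4 CPM against 61.7 and 62.3 CPM (0.73 ± 0.20, adjusted p = 0.00763). That call was lost with total counts (0.49, adjusted p = 0.0655), without 687g replicate 1 (0.52, adjusted p = 0.0568) and without pB2 replicate 1 (0.72, adjusted p = 0.0585). Isg15, Irf7 and Irf9 were not called, so the list did not move as a block. In 10 of the 12 lower members both other lines lay nearer to 687g. Mndal, an interferon-inducible nuclear protein outside the list, had one of the largest folds upward, from 0.0741 and 0.212 CPM in pB2 to 264 and 255 CPM in 687g (10.65 ± 0.38, adjusted p = 1.20e-10, 11.63 without pB2 replicate 2).

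Cell cycle genes were lower in 687g in 16 of 24 members, higher in 1 and not called in 7, with a median of -0.99. Without 687g replicate 2 the higher count was 2. Ccne1, cyclin E1, was at 68.5 and 56.1 CPM in pB2 and 12.002 and 14.7 CPM in 687g (-2.22 ± 0.20, adjusted p = 5.31e-07). Birc5, survivin, averaged 890 and 191 CPM, and the replication licensing genes Mcm5 and Mcm7 averaged 241 and 486 CPM in pB2 and 68.7 and 107 CPM in 687g. Mki67, the proliferation marker, averaged 295 and 155 CPM and was lower, whereas Cdk1 (740 and 753 CPM), Top2a and Rrm2 were not called. Ccnd2, cyclin D2, was higher, at 0.222 and 0.106 CPM in pB2 and 48.2 and 34.9 CPM in 687g (7.997 ± 0.38, adjusted p = 9.25e-10). Birc5, Mcm7 and Tyms lie in windows of neighbouring genes whose median was below -0.75. Without these 3 and Ccnd1, the members in windows past 0.75 either way, 13 of 20 were lower and the median was -0.87.

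Hypoxia and glycolysis genes were higher in 687g in 13 of 20 members, lower in 2 and not called in 5 (median 0.64). The higher count was 6 with total counts, 8 without 687g replicate 1 or without pB2 replicate 1, and 5 without pB2 replicate 2. Bnip3, a mitophagy receptor induced by hypoxia, was at 17.3 and 18.5 CPM in pB2 and 154 and 245 CPM in 687g (3.48 ± 0.36, adjusted p = 2.19e-06). Car9, carbonic anhydrase 9, was lower, at 54.4 and 54.7 against 1.67 and 1.61 CPM (-5.04 ± 0.24, adjusted p = 9.47e-10). Hk2, the inducible hexokinase, averaged 10.3 and 91.8 CPM, and Pgk1 25.8 and 177 CPM. Gapdh, Pgk1, Eno1, Ldha and Pgam1 have processed copies in the genome, and their counts are uncertain: Gapdh was at only 3.48 to 13.8 CPM in these 4 libraries. In pB3 against Epcam hi 11 members were lower and 2 higher. Calls were opposite in the 2 comparisons for 9 members, beside 1425 of all 15890 genes tested.

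Hox genes separated the lines by cluster. Of 39, 14 were tested, and 8 were lower in 687g, 0 higher and 6 not called. At an unadjusted p under 0.05 the higher count was 1, and by DESeq2 and limma-voom it was 0. It was 1 without 687g replicate 1, 687g replicate 2 or pB2 replicate 1. Hoxa10, of the A cluster, was at 32.2 and 28.2 CPM in pB2 and 0.279 and 0.0672 CPM in 687g (-7.31 ± 0.38, adjusted p = 2.30e-09). Without 687g replicate 1 it was -8.64 and without replicate 2 it was -6.73. It was at 15.1 and 17.3 CPM in pB3 and at 0.0703 and 0.0547 CPM in Epcam hi. Hoxa5, Hoxa6, Hoxa7, Hoxa9 and Hoxa11 were called in the same opposite way as Hoxa10, lower in 687g than in pB2 and higher in pB3 than in Epcam hi. In each of these 6 genes every pB2 and pB3 library lay above every 687g and Epcam hi library, at low levels in several (Hoxa9 averaged 0.503 CPM in pB2). Hoxa13 was at 5.18 and 6.79 CPM in pB2 and at 0 in 687g, at least 66.9-fold lower (adjusted p = 6.31e-06), and it had at most 1 count in the other lines. The B cluster genes Hoxb3, Hoxb4, Hoxb6 and Hoxb7 had at most 1 count in pB2 or 687g and were higher in pB3 than in Epcam hi.

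**Figure D3:**
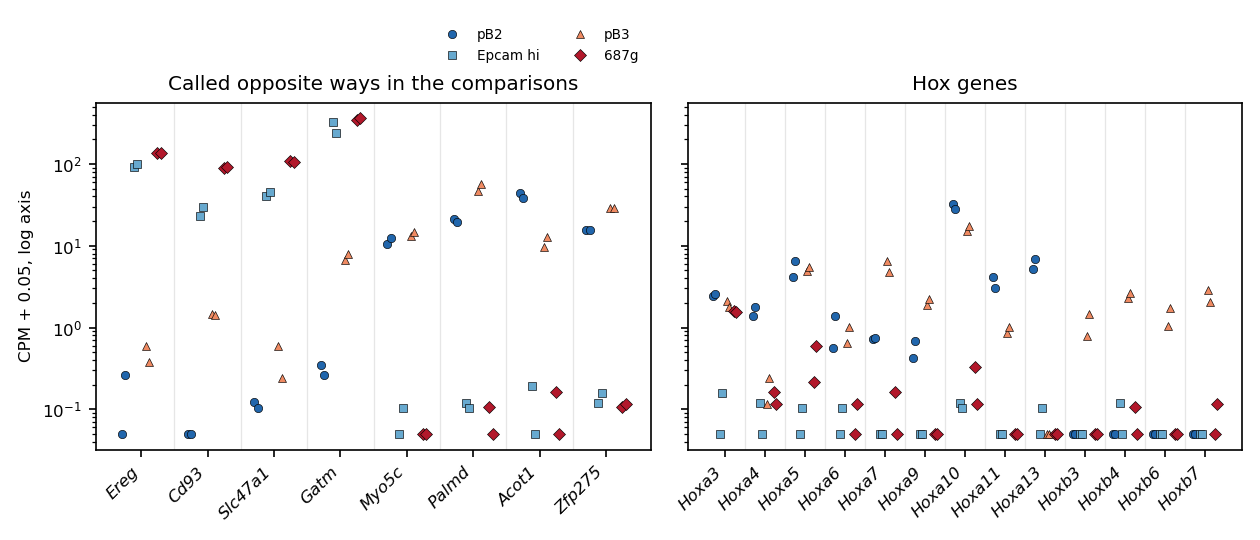
CPM + 0.05 on a log axis, with 1 point per library, for the 8 genes with the largest opposite changes on the left and 13 Hox genes on the right. A count of 0 lies at 0.05. Ereg, Cd93, Slc47a1 and Gatm are high in 687g and Epcam hi, and for the rest of the left panel and Hoxa5 to Hoxa11 the pB2 and pB3 points lie above the others.

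The 8 genes with the largest opposite changes had levels in both lines of 1 mouse model above those in both lines of the other, library by library. They were ranked by a difference that sets both lines of 1 model against both lines of the other. This split therefore follows from the choice of genes, and the levels below are a description. Cd93, a C-type lectin receptor, had no count in pB2 and was at 88.9 and 90.6 CPM in 687g, at least 967-fold higher (adjusted p = 2.41e-10), with 23.003 and 29.3 CPM in Epcam hi and 1.41 and 1.36 CPM in pB3. Gatm, which makes the creatine precursor, was at 0.296 and 0.212 CPM in pB2 and 342 and 360 CPM in 687g (10.42 ± 0.33, adjusted p = 8.86e-11), with 329 and 240 CPM in Epcam hi. Slc47a1, a drug and cation exporter, had 2 counts in pB2 and 107 and 107 CPM in 687g, a ratio of 1730 with an interval of 479 to 14294 (adjusted p = 1.50e-10). These genes and Ereg were high in the reporter-model lines. Zfp275, a zinc finger gene, was the reverse, at 15.6 and 15.7 CPM in pB2 and 28.6 and 29.1 CPM in pB3 with 2 counts in 687g, a ratio of 257 with an interval of 70.8 to 2128 (adjusted p = 1.73e-09). Palmd, Acot1, a thioesterase of fatty acid metabolism, and Myo5c, a myosin motor of vesicle transport, had the same pattern as Zfp275. Palmd had 1 count in 687g and Acot1 2, with ratios of 664 (interval 119 to 26263) and 669 (185 to 5534). Myo5c had none and was at least 127-fold lower. With 2 lines of each model, model and line cannot be told apart.

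**Figure D4:**
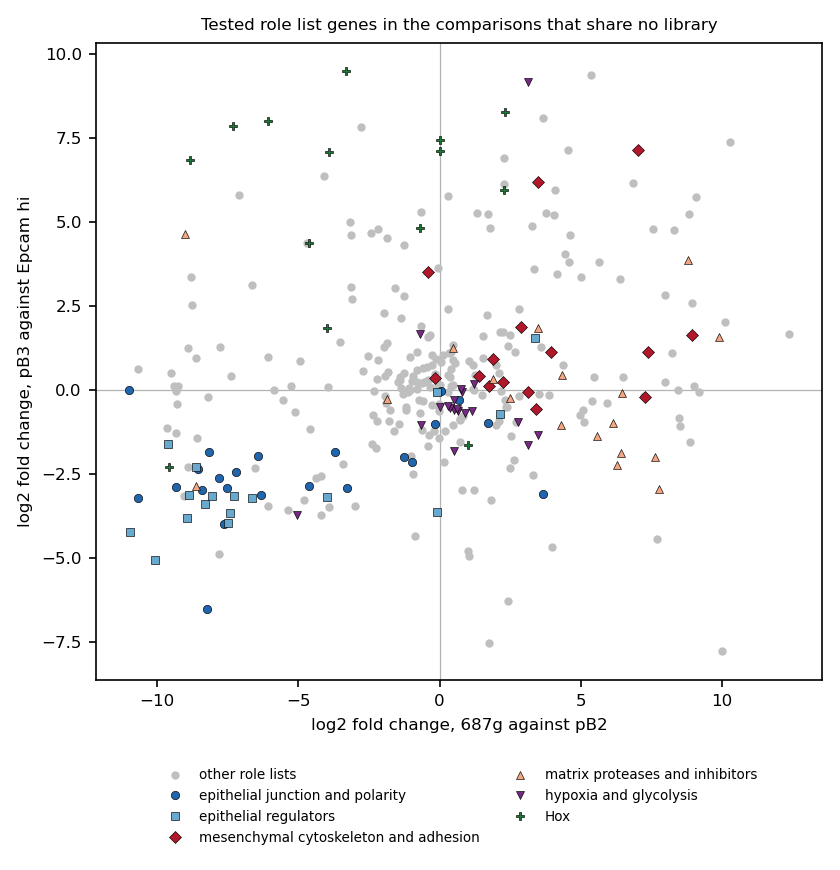
Log2 fold change of 687g against pB2 on the horizontal axis and of pB3 against Epcam hi on the vertical axis, with 1 point per tested gene of the role lists. Junction genes and epithelial regulators centre at the lower left (medians -6.43 and -7.51 across, -2.44 and -3.19 up). Of 20 hypoxia genes, 9 were called in opposite directions, beside 1425 of all 15890 genes tested.

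The largest folds outside the lists named a few more genes. Selp, the P-selectin adhesion receptor of platelets and endothelium, was at 0.148 and 0.159 CPM in pB2 and 432 and 327 CPM in 687g (11.19 ± 0.39, adjusted p = 1.10e-10), and it was below 1.6 CPM in every library of the other lines. Smoc2, a matricellular calcium-binding protein that is also on the fibroblast marker list, was at 0.296 and 0.477 CPM in pB2 and 787 and 705 CPM in 687g (10.84 ± 0.49, adjusted p = 5.76e-10). Add2, an adducin of the membrane skeleton, was at 0.296 and 0.106 against 335 and 267 CPM (10.60 ± 0.34, adjusted p = 8.86e-11), with 11.36 without pB2 replicate 1 and 9.95 without replicate 2. Add2 was also at 92.6 and 99.8 CPM in pB3, which put it with Zeb1 and Vim, whereas Selp and Smoc2 belonged to 687g.

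Differences between 687g and pB2 were not spread evenly along the genome. In 320 windows of 50 consecutive tested genes, 16 had a median log2 fold change beyond 0.75, 11 of them lower in 687g and 5 higher, with 752 genes in all. Of the 11, 9 lay on chromosome 5 of GRCm38, in stretches from 12669155 to 57262007 and from 136178127 to 151651242, with medians from -1.73 to -0.93. The remaining pair lay on chromosome 11 from 110269369 to 118449963, with medians of -1.02 and -0.88. In these 11 windows pB2 lay 0.43 to 1.29 log2 units above the mean of the lines, and the other lines were within 0.63 units below it. Medians of pB3 against Epcam hi in them were between -0.27 and 0.13. Members of the lists in these windows include Msx1, Il6, Tyms, Mcm7, Pdgfa, Fscn1, Sox9, Evpl, Birc5 and Timp2. The 11 windows hold 535 genes, of which 360 were called lower in 687g (67.3%), beside 26.7% of all genes tested, and the windows were chosen on these same values.

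**Figure D5:**
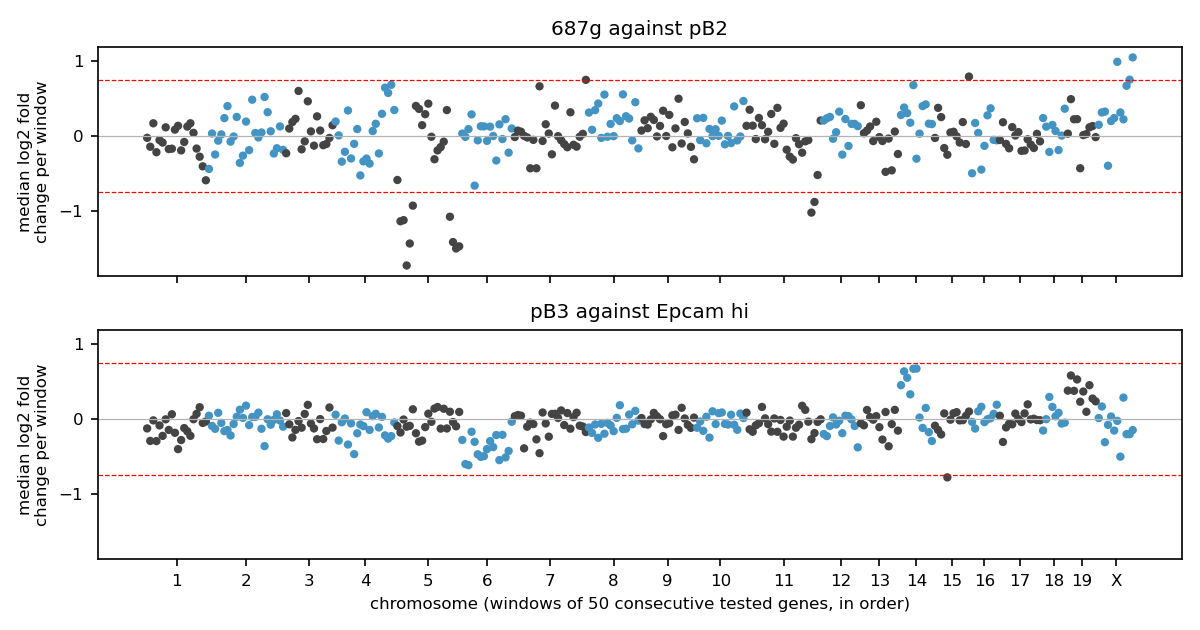
Median log2 fold change in 320 windows of 50 consecutive tested genes, ordered along chromosomes 1 to 19 and X, for 687g against pB2 above and pB3 against Epcam hi below, with dashed lines at 0.75 and -0.75. The windows of chromosome 5 below the line reach -1.73 in 687g against pB2 only.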

How the data were processed

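Poly(A) RNA of 4 cell lines, 2 libraries each, was sequenced. The deposited values are raw counts per gene, made by the authors with STAR 2.6.1a and featureCounts against GRCm38 (mm10) with Ensembl annotation 91, per the submitters' processing notes and the series' design text. Of 53379 gene IDs, 53274 had a symbol. Counts were fitted with edgeR 4.0.16 in R 4.3.3: all 8 libraries in 1 model with a coefficient per line, filterByExpr, TMM scaling and the quasi-likelihood F test, two-sided, with Benjamini-Hochberg adjustment over the 15890 genes tested. A call is an adjusted p under 0.05. CPM use TMM-scaled totals. Where the lower line has no count, a fold is a lower bound against 3 counts over both libraries. Where it has 1 to 3 counts, the count ratio stands with an exact 95% Poisson interval, which covers counting error only. SE are the log2 fold change over the square root of F. The members and lists were chosen with earlier results of these data known. Named genes are a panel, the 5 largest folds each way (at least 10 CPM), the 2 largest of each list with the largest one against its median (at least 5 CPM), and the 4 largest opposite changes each way. Any further list members given with values were chosen after their values were seen. Alternatives used limma 3.58.1, DESeq2 1.42.0, other scalings, filters and fits, a replicate block and leaving out each library. Promoters are from RefSeq GRCm38.p6. A few list members are counted but not reported by name here.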

Additional observations from a re-analysis of the deposited data

Results flagged for a closer look

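Of 68 named genes tested, 62 were called by edgeR's quasi-likelihood test for the difference between 687g against pB2 and pB3 against Epcam hi. In 20 of these the comparisons were called in opposite directions, and they are given here. Among all 15890 genes tested, 6800 were called for the difference (42.8%) and 1425 in opposite directions. Many named genes were chosen for large folds between 687g and pB2 or for large opposite changes. The counts of 62 and 20 therefore follow in part from the choice of genes and are a description. The difference is the log2 change of 687g against pB2 minus that of pB3 against Epcam hi, and where a line has few or no counts its size depends on the prior count.

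Positive differences, higher in 687g than in pB2 and lower in pB3 than in Epcam hi, were found for Ereg (17.79), Cd93 (17.72), Slc47a1 (17.43), Gatm (15.72), Cxcl1 (12.13) and Bmp7 (10.44). The same direction held for Ptgs2 (9.57), Bnip3 (4.83), B2m (3.91), Cgnl1 (2.70) and Trim25 (1.60). Negative differences were found for Myo5c (-19.00), Palmd (-18.60), Acot1 (-16.56), Zfp275 (-16.01), Hoxa10 (-15.18), Timp3 (-13.65), Krt14 (-11.32), Ifit2 (-9.78) and Msx1 (-7.11). The remaining 42 were called for a difference in size without opposite calls. No group has the 4 samples that a search for a single outlying library needs.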

How the results depend on the processing

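Between 687g and pB2 the genes higher and lower numbered 4060 and 4249 in the edgeR fit. They numbered 3783 and 4080 with DESeq2, 3988 and 4318 with limma-voom, and 3163 and 5289 with total counts. Leaving out 1 library in turn gave 2961 to 3831 higher and 3291 to 3954 lower. For pB3 against Epcam hi the ranges were 1562 to 2889 higher and 1292 to 3214 lower, and for the difference 2546 to 3933 and 2609 to 3874. Genes called in both comparisons ranged from 1082 to 1789 in the same direction and from 863 to 1710 in the opposite one. Of these summary values under the alternatives, 103 were within 1.5 times the edgeR count and 7 were not, all 7 with a pB3 library left out. None was reversed. Replicate numbers were shared by the lines, and the correlations of same-numbered deviations lay between -0.0982 and 0.173, so the numbers were not shown to pair the libraries. With a replicate block the counts were 3982 and 4178 for 687g against pB2, 2325 and 2216 for pB3 against Epcam hi, and 3333 and 3381 for the difference. Among named genes, 813 values of 687g against pB2 under the alternatives kept their call, and 3 did not, all of Trim25. Direction was not kept throughout: Snai1, which was not called, ran from -0.14 to 0.65 with 1 library left out. For the difference, calls were lost for Ehf (-2.55), Prrx1 (2.14) and Wnt5a (2.15), each with 1 library left out, and gained for Csf1 (-1.08) and Snai1 (-1.25) without 687g replicate 1 and for Hoxa13 with DESeq2 (-7.73) and limma-voom (-6.92). By limma-voom the change between 687g and pB2 was 11.48 for Cd93, 6.52 for Cxcl1, -7.63 for Hoxa13 and -8.56 for Myo5c. The cause was not tested. Counts near 0 in 1 line limit the size of a fold, and 2 libraries per line limit the estimate of their spread.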

Other observations

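Genes of the X chromosome were called higher in 687g than in pB2 more often than all genes tested. Of 584 tested, 35.1% were called higher and 16.4% lower by edgeR's quasi-likelihood test, beside 25.6% and 26.7% of all genes, and their median log2 fold change was 0.38. Relative to the mean of the lines, the X median was -0.185 in pB2 and 0.174 in 687g. It was -0.095 in pB3 and -0.019 in Epcam hi, so by the chromosome median pB2 was low as much as 687g was high. Window medians of 687g against pB2 along the chromosome ran from -0.40 to 1.05, so the shift was uneven. In the X windows past 0.75, chosen on these values, 687g lay at 0.73, 0.46 and 0.60 relative to the mean of the lines. There pB2 lay at -0.40, -0.22 and -0.27, nearer to the mean than 687g. Elsewhere it could be the reverse, as from 74304998 to 94024626, where pB2 lay at -0.27 and 687g at -0.001. Xist, the RNA that silences an X chromosome in female cells, was at 192 and 483 CPM in pB2 and at 34.8 and 56.3 CPM in 687g (-2.89 ± 0.45, adjusted p = 9.46e-05). It was at 707 and 609 CPM in pB3 and at 388 and 958 CPM in Epcam hi, so 687g was the lowest of the lines. Xist was chosen after its values were seen, and its part in the level of X-linked genes was not tested.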
